A study of Mus musculus with 24 samples.

Results

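On the control diet of this study, 11 of the 12 mice fell into 2 sets at 1 unnamed microarray probe, A_55_P2138100, and the sets are described here across all genes. The mice were chosen by the log2 ratio of that probe (the mouse's RNA over a common pool): 7 mice with a ratio above 0 are called high, 4 with a ratio below -1 are called low, and mouse 64, near 0, was left out. They are 11 of the 24 mice of the series. All were male C57BL/6JRcc mice of 28 or 29 weeks, and the tissue was epididymal white fat, the pad beside the testis. Both sets ate the Ctrl NR diet for 18 weeks: a semi-synthetic feed with 40% of its energy from fat, 0.115% tryptophan and 30 mg per kg of nicotinamide riboside (NR), a vitamin B3 form that cells turn into NAD. The other 12 mice ate the same feed with 0 mg of NR (No NR). Their values did not set which Ctrl NR mice were high or low, but the probe had been singled out in an earlier comparison of the 2 diets. Every mouse was fed 0.8 gram at the start of the dark phase and refed 1.8 gram in the light phase before the tissue was taken.

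White fat stores triglyceride and releases it on demand, and its large fat cells share the pad with macrophages, blood vessels, fibroblast-like progenitors and a covering sheet of mesothelial cells. Nicotinamide riboside enters the NAD pool through the kinases Nmrk1 and Nmrk2, or after cleavage by the phosphorylase Pnp, and much of the cell's NAD is remade from nicotinamide by Nampt. Leptin, from Lep, is the hormone by which fat cells report their stores. The pad's RNA is a mixture, so that fewer cells of a type and less RNA per cell cannot be told apart in any value below.

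Each mouse's RNA was labelled with Cy5 and hybridised on its own array against 1 pool of fat-pad RNA labelled with Cy3, which held other diets and females too. A value is the log2 of mouse over pool, and a difference is high minus low on that scale, with its standard error from limma. The sets were defined by a measured value of these same arrays, so the comparison of high with low is a description and carries no p-value. A feature is called apart when no high mouse overlapped a low mouse and the difference exceeded 0.5 either way. The fat cell genes Adipoq, Plin1, Fabp4 and Lep were well above background on all 11 arrays, and Crisp1 of the epididymis and Ckm of muscle on 0. The sperm protamine gene Prm1 was well above background on 3 high and 3 low arrays. Between 34.5% and 46.2% of spots were well above background in Cy5 on the high arrays and between 40.3% and 49.4% on the low arrays. The arrays lay on 5 slides, of which 3 held both sets. All 4 low arrays lay in the first row of their slide, against 3 of the 7 high arrays, with the other 4 in the second row.

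At the probe that split the mice, the log2 ratios of the high mice were 0.78 (mouse 115), 0.88 (108), 0.98 (88), 1.09 (75), 1.30 (84), 1.40 (97) and 1.42 (95). The low mice were at -1.18 (68), -1.26 (104), -1.28 (117) and -1.42 (77). Mouse 64 stood at -0.08, between the nearest high mouse, 115, and the nearest low mouse, 68. The 12 No NR mice lay between -1.83 and -0.73, so the low mice fell inside the No NR range and the high mice above it. Both channels took part in this ratio. The mouse's own Cy5 signal ran from 165 to 407 scanner units on the high arrays and from 83 to 152 on the low ones. The pool's Cy3 signal, from the same pooled RNA on every array, ran from 176.5 to 407 on the high arrays and from 435 to 582.5 on the low ones. On the No NR arrays the pool gave 388.5 to 581 units, and on that of mouse 64 it gave 535. The pool thus read lower at this probe on each of the high arrays than on any low array.

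**Figure D1:**
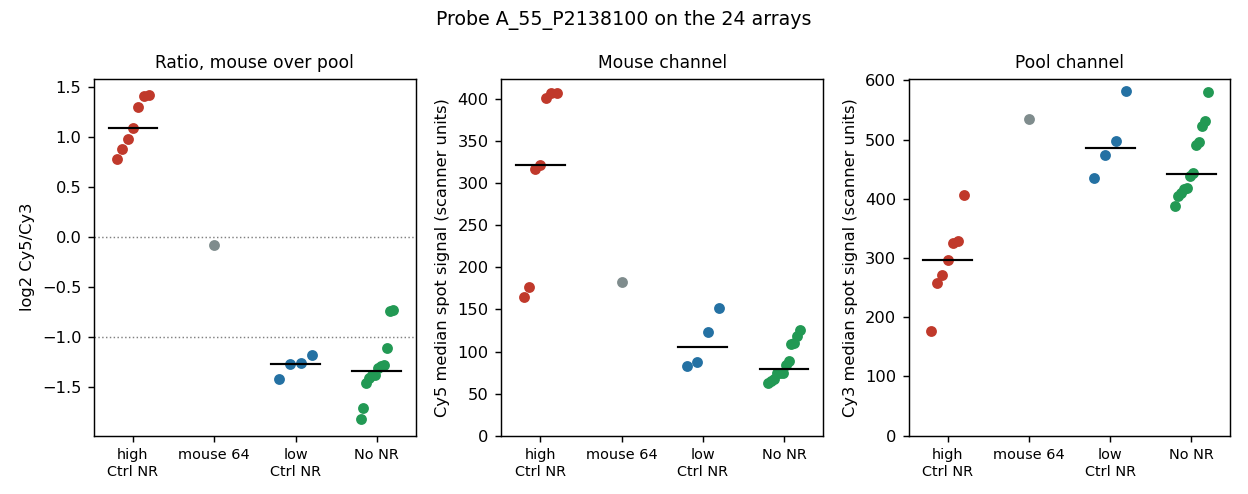
Probe A_55_P2138100 on each of the 24 arrays: log2 Cy5/Cy3 (left; dotted lines at 0 and -1, the limits of the choice), Cy5 signal of the mouse (middle) and Cy3 signal of the pool (right), in scanner units. Points are mice and bars are group medians; the high mice are above all others in the ratio, and their pool signal, 176.5 to 407 units, is below that of every low mouse.

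Across the genome the 2 sets differed at few features. Of 21768 features (13264 named genes and 8504 unnamed probes), 225 were apart (1.03%), 102 of them higher in the high mice (0.469%) and 123 lower (0.565%). The differences of all features centred near 0, with a median of -0.01 and 48.2% above 0, and the median standard error was 0.118. A difference over 1 either way, with no overlap, was found at 32 features, 29 of them higher in the high mice and 3 lower. Without a size limit, 257 features were higher and 422 lower in every high mouse than in every low mouse. The split of the 225 into higher and lower depended on the scaling: 45.3% were higher with loess ratios, 34.4% of those apart in the authors' processed signals, and 19.5% of those apart with median centring alone, which moved the median of all features to -0.24. With the mouse's Cy5 signal alone, 57 features were higher and 113 lower.

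Features without a gene name led the higher side. Of the 7 features with the largest differences, all but 1 carried Ensembl transcript accessions that the tables used here do not pair with a symbol, and 1 of those is the splitting probe. Probe A_55_P2138104, which targets the same transcript accession as the splitting probe, averaged 1.17 ± 0.25 (SD, n = 7) in the high and -1.48 ± 0.05 (SD, n = 4) in the low mice, a difference of 2.64 (SE 0.125, 6.25-fold). Mouse 64 was at -0.32 there, and the No NR mice were at -1.22 ± 0.36 (SD, n = 12). Probe A_66_P124164, on another accession, ran from 0.65 to 1.66 in the high mice and from -1.43 to -1.37 in the low ones, with mouse 64 at 0.22. As at the splitting probe, the pool took part. After scaling of both channels to each other, the pool's Cy3 signal was lower on every high array than on every low array at 7 of the 102 features higher in the high mice, all 7 of them unnamed probes with Ensembl accessions. For A_55_P2138104 the Cy5 difference was 1.95 and the Cy3 difference -0.69. Over all 21768 features the pool signal was apart by more than 0.5 at only 6. The part that the pool's signal had in the other results was not tested, but its size was measured: the median Cy3 difference was 0.05 over the features higher and -0.01 over those lower, against median Cy5 differences of 0.83 and -0.64.

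**Figure D2:**
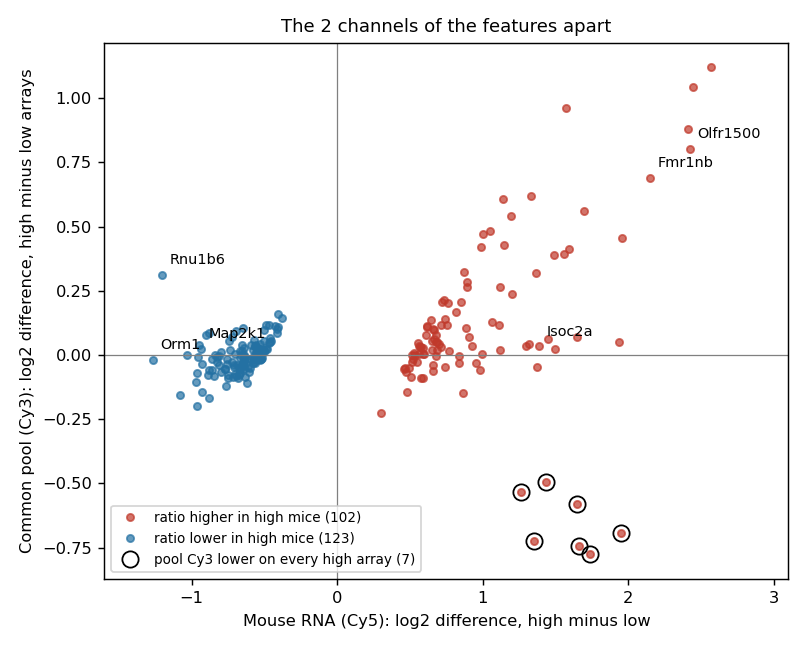
Each of the 225 features apart, with the log2 difference of the mouse's Cy5 signal on the x axis and of the pool's Cy3 signal on the y axis, both high minus low arrays. Ringed points are the 7 features whose pool signal was lower on every high array; most other points lie near a pool difference of 0, and Olfr1500 and Fmr1nb lie with a group whose pool signal was higher on average on the high arrays.

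Another class with many members was that of probes designed to intergenic transcripts and named by position (build mm9, per the file headers). Of 3773 such features 40 were higher (1.06%) and 20 lower (0.53%), against 0.302% and 0.535% of named genes. The units differ, because each of these probes counted alone, over 2014 regions, whereas 1 probe stood for each named gene. Probes of 1 region can repeat the same difference, so the shares cannot be compared directly. These regions and the ones below were singled out after their values were seen. On chr7:4827340-4863315, forward strand, 5 of 6 measured probes were apart, with differences of 1.26 to 1.89, while the remaining probe, A_30_P01026371, differed by 0.15. At A_30_P01029235 of this region the high mice ran from 0.45 to 1.31, the low mice from -1.48 to -0.82, and mouse 64 stood at 0.74. On chr17:39960567-39992817, 2 of 4 forward and 2 of 5 reverse probes were apart and all 9 differences were positive, from 0.41 to 0.69. In the other direction, 2 of 3 probes of chr19:5834117-5835940, reverse strand, were apart, at -0.95 and -0.89. On chr6:112552041-112560067, forward strand, 3 of 10 probes were apart, from -0.81 to -0.66. Among the 898 regions with at least 2 measured probes, 8 had 2 or more apart. The 8 include both strands of the chr17 interval above and a region inside it, chr17:39983902-39985688, forward strand, with 2 of 3 probes apart. They are therefore fewer than 8 separate places. Regions were not uniform, since the probes of chr14:33923944-34003394, reverse strand, ran from -0.67 to 0.60 with 2 apart below and 1 apart above.

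Among named genes, 40 were higher in the high mice, with a mixed set of functions at the top. Olfr1500, an olfactory receptor gene, had the largest difference, 1.62 (SE 0.222, 3.08-fold). The high mice were at 1.62 (97), 1.60 (95), 1.57 (115), 1.51 (75), 1.08 (88), 1.06 (84) and 0.29 (108), and the low mice at -0.12 (77), -0.33 (104), -0.46 (117) and -0.59 (68). Mouse 64, at 1.30, sat with the high mice here although it lay between the sets at the splitting probe. Both channels of Olfr1500 varied widely from array to array: after scaling, the mouse's Cy5 ran from 7.72 to 12.00 on high and from 7.05 to 9.66 on low arrays (log2 signal) and so overlapped, and the pool's Cy3 ranged over 3.60 log2 units across the 24 arrays, where the median feature ranged over 0.36. Fmr1nb, a testis-enriched gene neighbouring Fmr1, was similar, from 0.62 to 1.39 in the high and from -0.58 to -0.15 in the low mice, with mouse 64 at 1.10 and a pool range of 1.74, and its Cy5 signals overlapped too. Its other probe was well above background on 0 of the 11 arrays. In all, 20 of the 102 features higher in the high mice had a pool signal higher by more than 0.3 on the high arrays.

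For the next genes the pool was level and the mouse channel carried the difference. Clec3b, which encodes the plasminogen-binding protein tetranectin, ran from 0.10 to 0.83 in the high mice with a median of 0.60. The low mice were at -0.23 (117), -0.77 (104), -1.15 (77) and -1.40 (68), which gave a difference of 1.39 (SE 0.214, 2.62-fold). The No NR mice averaged -0.53 ± 0.24 (SD, n = 12), below every high mouse. Isoc2a, an isochorismatase-domain gene on chromosome 7, ran from 0.41 to 1.23 in the high mice and from -1.05 to -0.32 in the low, a difference of 1.35 (SE 0.165, 2.56-fold). Ino80d, part of the nucleosome-moving INO80 complex, had a smaller but tighter gap: the high mice lay between 0.34 and 0.55, the low mice between -0.61 and -0.17, mouse 64 at -0.08 and the No NR mice between -0.64 and -0.26. Its difference was 0.84 (SE 0.0937, 1.79-fold), and the high mice stood apart from the other 17.

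For some named genes the size of the difference leaned on single mice or was not shared by another probe. Atp1b1, the beta subunit of the sodium pump, differed by 1.01, but mouse 108 stood at 1.68 while the other high mice lay between -0.28 and 0.45; without mouse 108 the difference was 0.77. Pigt, of the complex that attaches GPI anchors, had high mice packed between 0.27 and 0.53 and low mice spread from -1.37 to -0.14, with mouse 64 above all of them at 1.60. F10, coagulation factor X, differed by 0.99 at its brightest probe, on 6 high mice because the outlier spot of mouse 115 was left out. Its other probe differed by -0.06. Mean log2 intensity was 15.6 at the first and 9.25 at the other, and which of them reports the F10 transcript was not tested. Averaging both probes gave 0.33, and slide as a block gave 0.55. Slc26a4, an anion exchanger, differed by 1.17 and was well above background on 6 high and 2 low arrays. Defb36, a beta-defensin, differed by 1.10 and was well above background on 7 high and 2 low arrays. The skin and epithelial genes Evpl (envoplakin, 0.89) and Lgals7 (galectin-7, 0.87) were highest in mouse 115, at 1.06 and 1.08. At Evpl mouse 108 was close to it, at 0.96. Srp54b (0.97) belongs to a family of near-identical signal recognition particle genes, so the probe may not tell its members apart.

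On the lower side were 71 named genes. Rnu1b6, a U1 spliceosomal RNA, had the largest difference, -1.52 (SE 0.293). The high mice were at -0.33 (115), -0.85 (75), -1.40 (84), -1.57 (97), -1.61 (108), -1.91 (88) and -2.01 (95), and the low mice at 0.70 (77), 0.31 (104), -0.21 (68) and -0.26 (117). Mice 115 and 117, which shared slide 1, nearly met, and mouse 64 lay on the other side, at 1.14. The pool's Cy3 signal was higher by 0.31 on the high arrays at this probe and did not overlap, beside a Cy5 difference of -1.20. Of 4 genes that the RefSeq table types as small nuclear RNA, 3 were apart and lower, the others being Rnu3b1 (a U3 RNA, -0.79) and Rnu2-10 (a U2 RNA, -0.79, outside the naming rule), beside 0.565% of all features; this grouping was chosen after its values were seen. In the list of nuclear and small noncoding RNAs 1 of 13 measured genes was apart, Rnu3b1, and the median was -0.06. Those measured genes include neither Rnu1b6 nor Rnu2-10, so this count does not bear on them. At Rnu3b1 mouse 117 stood at -0.66 and the other low mice between 0.04 and 0.17, so that the sets met within rounding on slide 1. Such RNAs have many gene copies and pseudogenes, and their probes cannot be assigned to 1 of them.

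Map2k1, the MEK1 kinase that activates ERK, was the most evenly separated of the signalling genes. The high mice lay between -0.95 and -0.51 with a median of -0.60, and the low mice were at 0.42 (77), 0.34 (68), 0.33 (104) and 0.09 (117). The difference was -0.96 (SE 0.103), which put the low mice 1.94-fold above the high ones, and mouse 64, at -0.74, sat with the high mice. The 12 No NR mice lay between -0.17 and 0.52, with the low mice. Zdhhc6, a protein palmitoyltransferase, was as evenly split, at -0.73 to -0.46 against 0.12 to 0.34 (difference -0.81, SE 0.0845), but its other probe differed by only -0.27, also without overlap. Ssna1, a centrosomal protein gene, differed by -0.84 and Rab28, a small GTPase gene, by -0.80; mouse 64 lay above the high mice at Ssna1 (0.44) and among them at Rab28 (-0.66).

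Orm1, an acute-phase plasma glycoprotein also made in fat, ran from -1.36 to -0.41 in the high mice and was at 0.73 (77), 0.51 (68), 0.22 (104) and 0.05 (117) in the low ones, a difference of -1.25 (SE 0.175, 2.37-fold higher in the low mice). Mouse 64 was at -0.52, among the high mice, and the No NR mice spread from -0.51 to 0.48. The folate enzyme genes Mthfs and Mthfsl, close copies on chromosome 9 whose probes may share signal, differed by -0.82 and -0.99. Ccng1, a p53-induced cyclin, differed by -0.86, with mouse 115 lowest at -1.28. Gmpr2, a GMP reductase of purine salvage, differed by -0.82, and Prr32, a proline-rich protein gene, by -0.84. Tmem123, a cell-surface mucin-like protein gene, differed by -0.73, with mouse 64 at -1.30, below all 7 high mice.

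**Figure D3:**
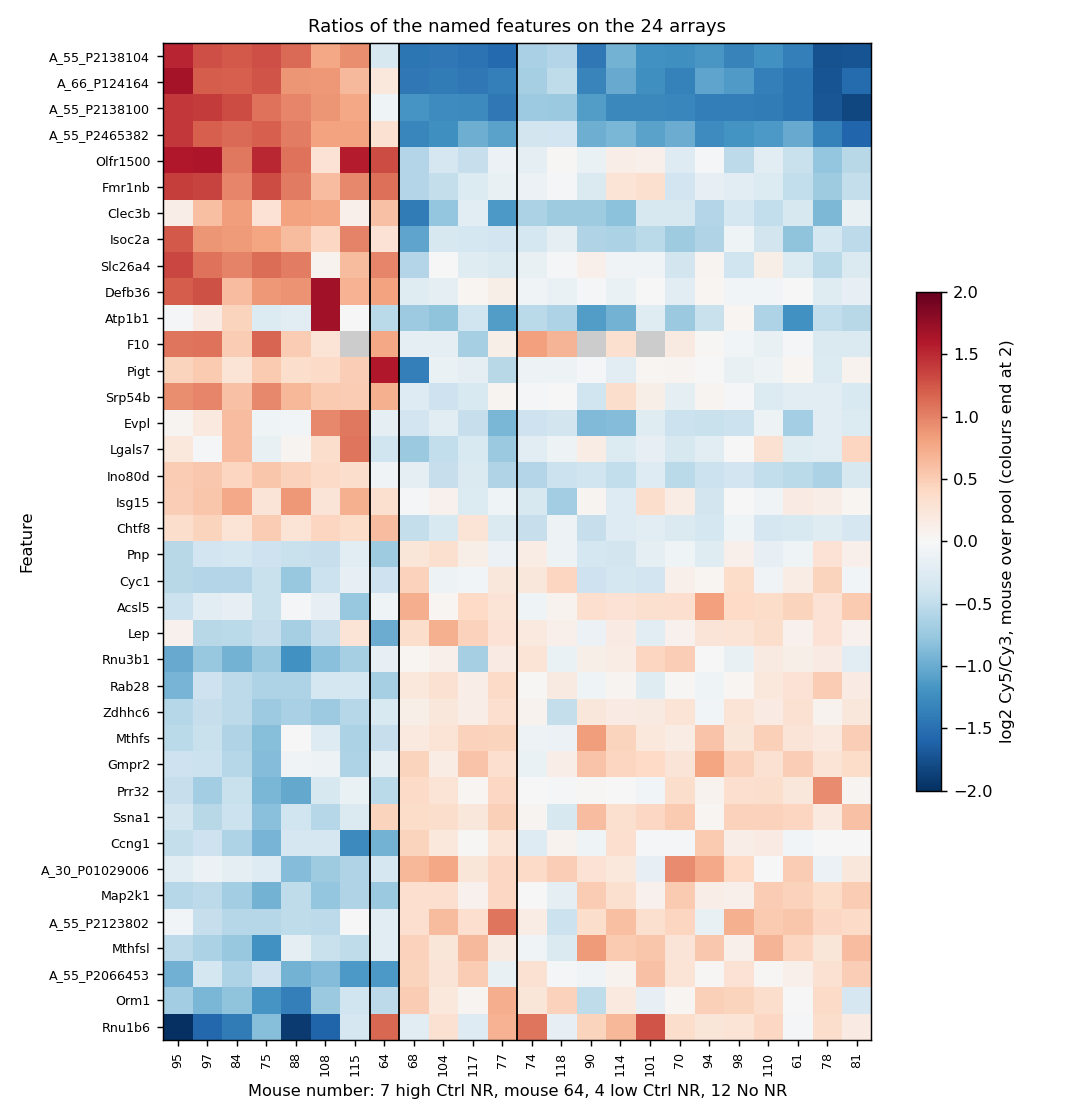
Log2 mouse/pool ratios of the leading named genes and unnamed probes (rows, ordered by the difference high minus low) in the 24 mice (columns; black lines part the high mice, mouse 64, the low mice and the No NR mice; grey, spot left out). The high columns are red at the top and blue at the bottom, the low and No NR columns mostly the reverse, and mouse 64 follows the high mice at some rows, such as Map2k1 (-0.74), and not at others, such as Rnu1b6 (1.14).

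Of the measured genes that make or use NAD, 11 and 17 in number, 1 was apart, beside 1.03% of all features, so the count says nothing particular of them. Pnp, the purine nucleoside phosphorylase that can cleave nicotinamide riboside, lay between -0.56 and -0.21 in the high mice and at 0.32 (104), 0.24 (68), 0.12 (117) and -0.12 (77) in the low ones. Its difference was -0.54 (SE 0.0991), the low mice being 1.46-fold higher, and mouse 64 was at -0.71. It was the only one apart of 11 measured genes of NAD synthesis and salvage, whose median difference was -0.05. Nmrk1, which phosphorylates nicotinamide riboside, differed by -0.22 (SE 0.0756): the high mice lay between -0.06 and 0.14 and the low mice between 0.13 and 0.30, so they met. Nampt differed by -0.23 (SE 0.137) with overlapping sets. Among 17 measured NAD consumers and nicotinamide-clearing enzymes none was apart and the median was -0.06, with Parp1, the DNA damage sensor, at -0.40 (SE 0.142) and overlapping.

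Among 27 fat cell markers, 17 were above 0, the median was 0.06 and 1 was apart, Lep. Leptin transcript was at 0.27 (115), 0.08 (95), -0.46 (108), -0.47 (75), -0.53 (84), -0.55 (97) and -0.67 (88) in the high mice. The low mice were at 0.71 (104), 0.45 (117), 0.35 (68) and 0.29 (77), so that mice 115 and 77 all but met. The difference was -0.78 (SE 0.174), the low mice 1.72-fold higher, and mouse 64 lay lowest of the Ctrl NR mice at -0.99. Adipoq, the adiponectin gene, overlapped, at -0.05 (SE 0.258; 6 high and 3 low mice, the other spots left out), and the largest positive difference, that of the complement factor gene Cfd at 1.00 (SE 0.580; also 6 and 3 mice), overlapped too. In lipid and cholesterol synthesis 1 of 29 genes was apart, Acsl5, a long-chain acyl-CoA synthetase (-0.67, SE 0.151), and the list's median was 0.01.

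Of the markers of other cell types, none was apart. Stromal progenitor markers (20 genes) and smooth muscle and pericyte markers (13 genes) both had a median difference of 0.01. Of 30 macrophage markers 27 were below 0 with a median of -0.41, and 0 were apart. Their mean per mouse ran from -1.57 to 0.62 in the high mice and was 0.48 (117), 0.07 (68), -0.60 (104) and -0.85 (77) in the low ones. The median was -0.21 without low mouse 117, -0.25 without high mouse 115, -0.62 without high mouse 88 and -0.74 among the arrays of the first slide row. The largest single difference was that of the Fc receptor gene Fcgr3, at -0.96 (SE 0.310). Of 13 mesothelial markers 12 were above 0 with a median of 0.50; the mean per mouse ran from -0.31 to 0.64 in the high and from -0.85 to -0.02 in the low mice. Krt18, a keratin of simple epithelia, differed by 1.38 (SE 0.390), led by mice 108 (1.97) and 115 (1.30). The median of this list stayed above 0 under every alternative tried, and was lowest, 0.15, with median centring. All 7 measured red blood cell markers were above 0, with a median of 0.34 and a mean per mouse of -0.30 to 0.79 in the high and -0.58 to 0.12 in the low mice; this median was all but 0 with median centring and 0.15 without mouse 117. The part of these cell types in the differences above was not tested. Only the macrophage mean was fitted as a covariate, and no other list. This fit was chosen after the data were seen. With it, 204 features were apart, 188 of them among the 225 apart without it.

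Of 22 epididymis and testis markers 8 were measured, with a median difference of -0.30. Mouse 108 had a mean of 2.08 over them and the other high mice -1.14 to -0.45; low mouse 77 was at 1.39 and the other low mice between -1.09 and 0.05. Without mouse 77 the median turned to 0.17, and without any 1 of the others it lay between -0.76 and -0.15; among the arrays of the first slide row it was 0.42. T, B and NK cell markers had a median of -0.16 and endothelial markers 0.15, the latter at -0.20 with median centring, and neither list had a member apart.

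The remaining lists stood close to 0. Of 742 different genes measured over all lists, 11 were apart (1.48%, beside 1.03% of all features), 3 higher and 8 lower, in 11 of the 32 lists with a measured member. With shares this close, the single genes below describe themselves and not their lists. In the ERK cascade the only one of 22 was Map2k1, and the list's median was 0.04. In the chromatin remodelling complexes it was Ino80d of 33 (median 0.08, with 27 of 33 above 0). Of the 32 lists this was the only one whose means per mouse did not overlap, beside 679 of all 21768 features. The means ran from -0.01 to 0.07 in the high and from -0.13 to -0.03 in the low mice. Closest were high mouse 95, at -0.01, and low mouse 104, at -0.03. Ino80d, at 0.51 and -0.46 in these mice, is part of the means, so this gap is not separate from its difference. Cleavage and polyadenylation had Papola, the poly(A) polymerase, at 0.52 (SE 0.0997), of 19. Oxidative phosphorylation had Cyc1, cytochrome c1, at -0.64 (SE 0.128), while 41 of its 55 genes were above 0; Uqcrc1, another subunit of the same complex III, was at 0.40 (SE 0.107), and in it the sets met. Translation factors had Eif5a at -0.63 (SE 0.137), of 34. Vesicle coats had Sec13 at -0.55 (SE 0.129), of 35. The interferon-stimulated genes had Isg15 at 0.63 (SE 0.127), of 21, but its other probe differed by 0.15 with overlap. The cytosolic ribosomal proteins (59 genes, median 0.06) and proteasome subunits (31 genes, median -0.03) had 0 apart at the probe that stood for each gene. At the other kept probe of Rps15, a small-subunit protein gene, the difference was -0.86 without overlap, against -0.37, also without overlap, at the brighter one. Apart from the cell type lists above, medians lay between -0.09 and 0.11, beside a median of -0.01 over all features.

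**Figure D4:**
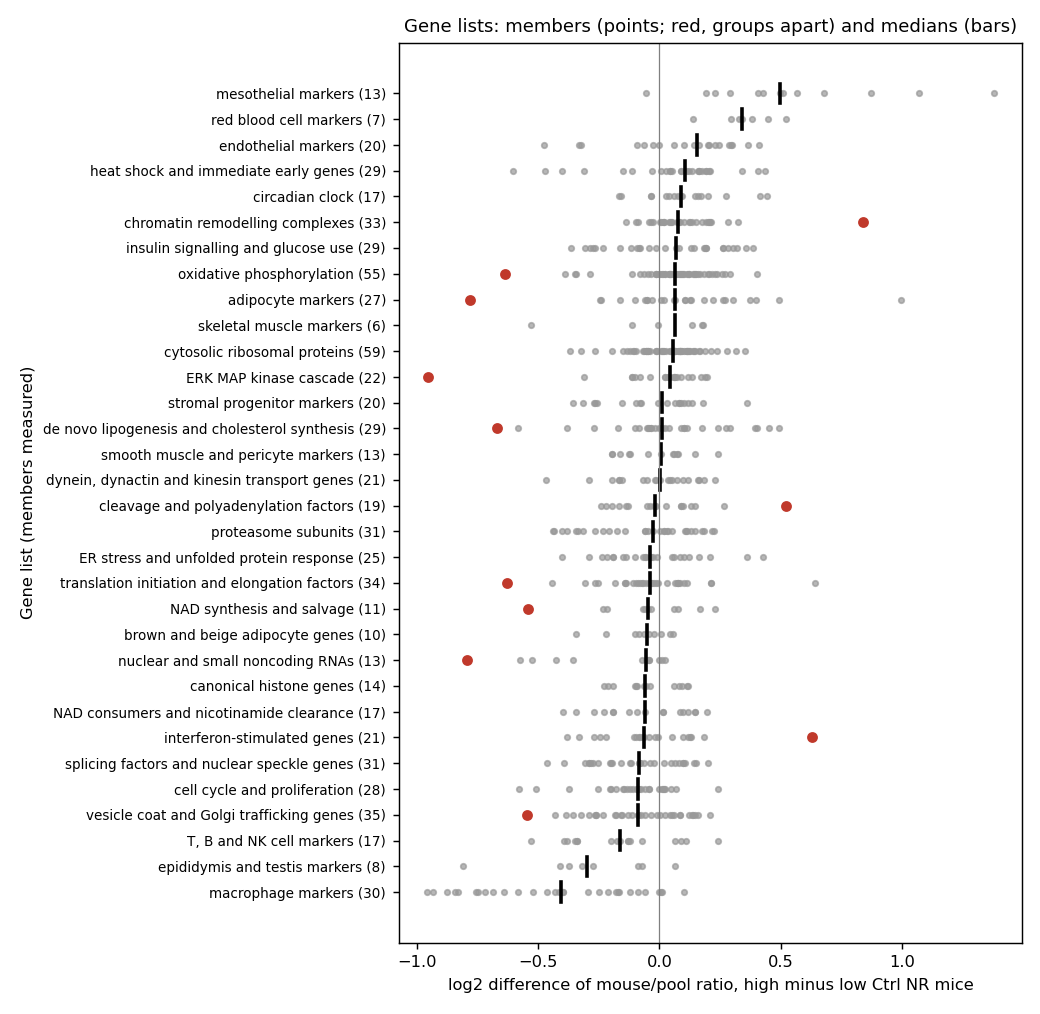
Differences (high minus low Ctrl NR mice, log2) of the members of 32 gene lists (points; red where no high mouse overlapped a low mouse and the difference exceeded 0.5) with each list's median (black bar). Macrophage markers lie lowest (-0.41) and mesothelial markers highest (0.50), both without a red point; the 11 red points are single genes of 11 lists.

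With slide as a block, 217 features were apart, 188 of them among the 225. The block entered the size of the difference only, and overlap was judged on the ratios without it. A call could therefore come only from the 679 features without overlap, so this count could not show how far slides took part. Mouse 64, which was outside the choice, was on the high mice's side at 74 of the 102 features higher and at 94 of the 123 lower. It was on the low side at 14 and 20, and between at 14 and 9. These positions were counted only at the features apart. Adding mouse 64 to the high mice left 215 features apart and adding it to the low mice 60.

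The No NR mice resembled the low mice at most of these features. Their mean was nearer to that of the low mice than of the high mice at 211 of 225. This was counted only at the features apart, so it has no share over all features beside it. All 12 parted from the high mice at 75 of the 225, and at 157 of all 21768 features. They parted from the low mice at 1 of the 225, and at 15 of all features. The 225 were taken because no high mouse overlapped a low mouse, which favours a parting of other mice from a set. Their shares therefore cannot be compared with those over all features. The gap at the splitting probe is not independent of the earlier comparison of the diets.

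The only test was made in the 12 No NR mice, whose values did not sort the Ctrl NR mice into sets. It is not fully independent, because the probe had been singled out in a comparison that used these mice. Within them, each of 20827 features was fitted on the log2 ratio of the splitting probe, which ran from -1.83 to -0.73. Mice 74 (-0.73) and 118 (-0.74) were highest, and the next was mouse 90 at -1.11. By limma with Benjamini-Hochberg adjustment 1 feature passed (0.0048%), and 1555 had an unadjusted p under 0.05 (7.47%). The 1 was F10, with a slope of 1.04 (SE 0.128, adjusted p = 0.0439): per unit of the probe's log2 ratio, F10 was higher by about as much. The spots of mice 101 and 90 were left out, so this slope rests on 10 mice. F10 was at 0.82 in mouse 74 and 0.68 in mouse 118, and between -0.29 and 0.32 in the others. The slope thus leans on mice 74 and 118. The other F10 probe had a slope of -0.40 (SE 0.431) and was far dimmer, with a mean log2 intensity of 9.25 against 15.6. The F10 call was lost when any of these 10 mice was left out, with slide as a block, without background subtraction, with the authors' processed signals or value table, and with the mean of both probes (slopes 0.33 to 1.19). Probe A_55_P2138104, on the same transcript accession as the splitting probe, had a slope of 0.99 (SE 0.154, adjusted p = 0.115), and A_66_P124164 one of 0.95 (SE 0.158, adjusted p = 0.127). At A_55_P2138104 mice 118 (-0.59) and 74 (-0.64) were again the highest, with the other No NR mice at -0.94 or below. Among negative slopes the lowest adjusted p was that of Mgp, the matrix Gla protein that inhibits calcification. Its slope was -1.51 (SE 0.261, limma adjusted p = 0.150). Mgp was at -1.64 in mouse 74 and -1.09 in mouse 118, and between -0.30 and 0.60 in the other No NR mice. In the Ctrl NR mice Mgp differed by -0.28 (SE 0.420) with overlap.

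Of the features apart in the Ctrl NR mice, 219 could be fitted in the No NR mice. The slope had the sign of the Ctrl NR difference at 165 of them, with an unadjusted p under 0.05 at 40, and the opposite sign with such a p at 2. The 2 directions differed. Of the 122 features lower in the high mice, 105 had a negative slope, but so did 13549 of all 20827 features. Of the 97 higher, 60 had a positive slope, beside 7278 of all. An unadjusted limma p under 0.05 went with 33 of the 105 negative slopes and with 7 of the 60 positive ones. Over all features such a p went with 1166 of the 13549 negative and 389 of the 7278 positive slopes. Map2k1 had a slope of -0.48 (SE 0.168) and Acsl5 one of -0.46 (SE 0.158), both with a limma adjusted p of 0.659. Rnu1b6, with the largest negative Ctrl NR difference, had a slope of 0.27 (SE 0.331, limma adjusted p = 0.842), and Clec3b one of -0.25 (SE 0.197, limma adjusted p = 0.743). With median centring in place of loess the negative slopes of Mgp and Tpm1 turned positive, so the directions here hold for loess ratios.

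**Figure D5:**
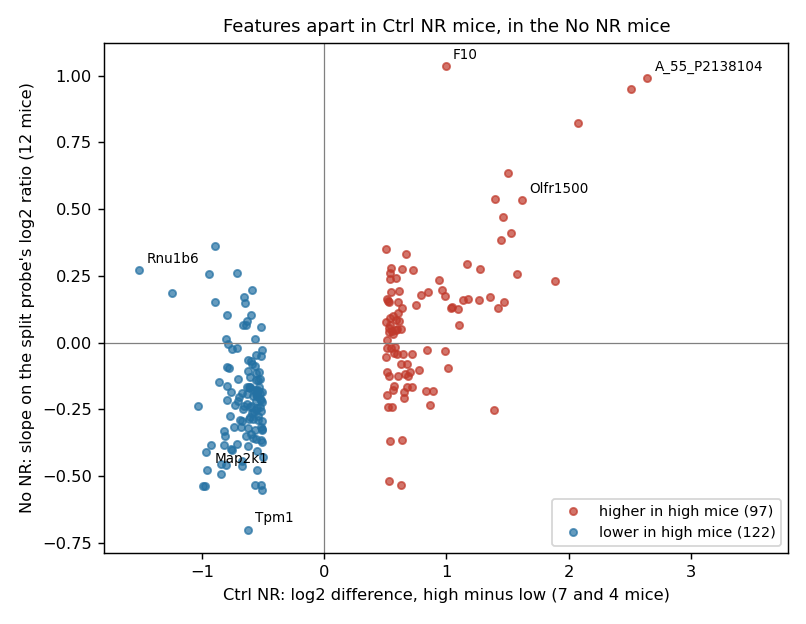
The 219 features apart in the Ctrl NR mice that could be fitted in the No NR mice: difference high minus low (x, 7 and 4 Ctrl NR mice) against the slope on the splitting probe's log2 ratio (y, 12 No NR mice, 10 for F10). Features lower in the high mice lie mostly under 0 (105 of 122), and the steepest positive slope, 1.04, is that of F10.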

How the data were processed

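The deposited scanner files hold spot intensity, read out by the authors' scanner software (Agilent Feature Extraction, version 10.7.3.1, per the submitters' processing notes); the authors' deposited value table holds log2 Cy5 values (r at least 0.99 with their own array, median 8.04, normalization not given in the sources used here) and was an alternative. Median signals were background-corrected (normexp, offset 50) and loess-normalized (limma 3.58.1, R 4.3.3), controls at weight 0; outlier-flagged spots were left out and spots averaged to 55681 probes, 27235 of them matched to 1 symbol of a RefSeq table (GRCm38.p6; names and chromosomes). Coordinates are the files' own (mm9). A probe was kept if well above background in Cy5 on 4 high or 2 low arrays (6 of 12 for the No NR fit); the brightest probe stood for a gene. Differences came from lmFit and eBayes. Missing values (0.126%) were left out, and filled with the set's mean for list means only.

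The features named are up to 12 named genes per direction apart with the largest difference, without clone and predicted names; unnamed probes with the largest difference; up to 2 members apart of each list or else the member with the largest difference; the lowest adjusted p in the No NR fit; and a fixed set; some are left out for length. The members, the lists and the rule were chosen with earlier results of these data known. The method was tested on simulated data. The animal numbers pair no mice.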

Additional observations from a re-analysis of the deposited data

Results flagged for a closer look

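In 126 sets of values (the leading features and the list means, in the high and in the low mice) 6 held a mouse far from the others of its set, by the gap to its nearest neighbour relative to the whole range; chance gives about 1 in 20. Mouse 108 was far in 3 of them: at 0.29 for Olfr1500, where the next high mouse was at 1.06; at 1.68 for Atp1b1, next at 0.45; and at 2.08 for the mean of the epididymis and testis markers, next at -0.45. In the low mice, mouse 68 was at -1.05 for Isoc2a, next at -0.38, and mouse 117 at -0.66 for Rnu3b1, next at 0.04. High mouse 115 had a mean of 0.0125 over the genes of NAD synthesis and salvage, next at -0.07.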

How the results depend on the processing

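Values that counted features apart moved by more than 1.5 times under some settings. The authors' processed signals gave 456 apart (157 higher, 299 lower), median centring 128 (25 higher) and a limit of 1 gave 32 (29 and 3). With mouse 64 among the low mice 60 were apart (28 and 32). Chosen after the data were seen, the Cy5 signal alone left 57 higher, and the first slide row alone, with 3 and 4 mice, gave 433 (198 and 235). The macrophage covariate, also chosen after the data were seen, moved the count less and gave 204 apart (92 higher and 112 lower). Leaving out 1 mouse in turn gave 230 to 324 apart, 97 to 144 higher and 123 to 188 lower, the last without mouse 117. The features with a slope in No NR mice numbered 12312 with median centring, 2 without a filter and 0 without background subtraction, with the authors' processed signals or value table, with the mean of kept probes and with slide as a block; leaving out 1 No NR mouse gave 0 to 4. Slopes reversed for Pcp4 (-0.22) and Ngfr (-0.12) in the processed signals and, with median centring, for Pcp4 (-0.069), Ngfr (-0.20), Mgp (3.54), Cfhr2 (2.45), Ltbp2 (2.25), Bcap29 (2.33), Cacna1a (1.64) and Tpm1 (2.44). The cause was not tested. The named genes apart whose difference was recomputed kept their sign under all settings tried. Where 1 mouse was left out or only the first slide row was used, this was fixed in advance, because the sets did not overlap. Tpm1 and Rnu2-10 were not recomputed. No paired analysis was possible because each mouse is in 1 set only and animal numbers are not shared. Slide as a block, which entered the difference but not the check for overlap, gave 217 apart. The number of arrays, 7 and 4, limits the precision.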
